A study of Mus musculus with 12 samples.

Results

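A group of 6 genes that mark or build invariant NKT cells was followed in spleen CD4+ T cells of mice that record past GM-CSF expression: the receptor alpha chain segments *Trav11* and *Trav11d*, the transcription factor gene *Zbtb16*, the SLAM family receptor genes *Slamf1* and *Slamf6*, and *Sh2d1a*, which encodes their adaptor SAP. They were chosen by name, with earlier results of these data known. All 6 members are among the 17523 genes of the table and among the 15587 genes that were tested. Testing needed 5 or more normalized counts in 3 or more libraries. The Gr/fr mice, on a C57BL/6 background, carry a modified Csf2 allele that expresses GM-CSF together with iCre and blue fluorescent protein, and a Rosa26 allele that switches on yellow fluorescent protein (YFP) permanently once iCre has acted, so that YFP+ cells have expressed the allele at some time whether or not they still do. All 4 groups came from such mice (n = 3) without induced disease: naive cells (gated as CD44-) and effector memory T (TEM) cells (gated as CD44hi), each split by YFP during the sort, which gives 3 libraries for every group. Per the study's methods the Gr/fr mice used for sorting were young adults, a few months old. Whether libraries with the same number came from 1 mouse was not given in the sources used here.

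Invariant NKT cells are T cells whose alpha chain almost always joins the same V and J segments, in the mouse *Trav11* or *Trav11d* with *Traj18*, paired with beta chains that favour *Trbv13-2*, *Trbv29* and *Trbv1*. The receptor binds lipids shown by CD1d. In the thymus, contacts between double positive thymocytes through the SLAM receptors, relayed by SAP and the kinase Fyn, are needed for these cells to form, and PLZF, the product of *Zbtb16*, gives them their ready effector state. Many mouse NKT cells carry CD4, so a CD4 sort can hold them.

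The alpha chain segments are shown first because their likeness decides how their counts can be read. *Trav11d* lies at chr14:52824357-52824913 and *Trav11* at chr14:53519303-53519859 (GRCm38, RefSeq, plus strand), both within the *Tcra* locus. Over the 342 bases of exons 1 and 2 that the GENCODE transcripts share, the 2 segments had 0 differences, so that reads from spliced transcripts cannot be assigned to one or the other. A further copy, *Trav11n*, differed from *Trav11* at 8 of 343 bases, 6 of them in exon 2, and its longest stretch identical to *Trav11* was 77 bases. Exon 2 of *Trav11* (chr14:53519569-53519859) and of *Trav11n* (chr14:53135388-53135678) and the J segment *Traj18* (chr14:54200777-54200842) are printed 5′ to 3′. In both exons the capitals mark the bases at which they differ, which are T53C, C86G, C149A, G165C, T188C and A214G, counted from 1 at the first base of exon 2, with the *Trav11* base first.
Trav11 exon 2: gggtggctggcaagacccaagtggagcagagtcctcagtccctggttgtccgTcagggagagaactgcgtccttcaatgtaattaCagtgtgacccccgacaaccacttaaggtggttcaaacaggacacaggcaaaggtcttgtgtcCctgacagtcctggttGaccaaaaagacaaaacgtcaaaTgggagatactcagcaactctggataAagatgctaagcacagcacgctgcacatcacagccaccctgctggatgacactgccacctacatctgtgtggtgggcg
Trav11n exon 2: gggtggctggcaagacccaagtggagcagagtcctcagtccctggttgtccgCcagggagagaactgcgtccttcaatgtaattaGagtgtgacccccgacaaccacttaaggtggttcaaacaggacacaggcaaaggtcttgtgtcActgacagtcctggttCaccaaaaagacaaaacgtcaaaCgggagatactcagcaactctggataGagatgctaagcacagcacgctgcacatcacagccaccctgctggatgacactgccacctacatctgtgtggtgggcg
Traj18: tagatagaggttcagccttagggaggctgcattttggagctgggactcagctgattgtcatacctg

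The other members lie apart from the locus and from one another. *Zbtb16* spans chr9:48651797-48836225, *Slamf1* chr1:171767131-171801184, *Slamf6* chr1:171917458-171948958 and *Sh2d1a* chrX:42502565-42522097. RefSeq places the gene *Gm32280* within *Zbtb16* and *Gm37065* over the start of *Slamf6*, so reads in those stretches could belong to either gene.

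Libraries held 40974124 to 57822269 reads on genes. Of the T cell markers, none of 7 was called in the YFP comparison of TEM cells, and the sort marker *Cd44* was higher in TEM than in naive cells of both YFP fractions. Markers of other cells were also present. Between YFP+ and YFP- TEM cells, all 6 plasmacytoid dendritic cell markers, 3 of 4 conventional dendritic cell markers, 1 of 5 macrophage and neutrophil markers, both CD8 markers and 1 of 4 regulatory T cell markers were lower in YFP+ cells. In the other direction, 3 of 4 gamma delta T cell markers tested, 3 of 4 NK cell markers and 1 of 5 B cell markers were higher, and 0 of 5 follicular helper markers were called. Of all genes tested, 2.3% were called higher and 4.67% lower in YFP+ than in YFP- TEM cells. The naive YFP+ replicate 2 stood apart in macrophage and neutrophil markers, whose sum reached 2910 normalized counts there against 128 and 397 in the other 2 libraries of its group.

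YFP+ TEM cells held many times more RNA of the NKT receptor segments and of *Zbtb16* than YFP- TEM cells, while *Slamf1*, *Slamf6* and *Sh2d1a* were not called between them. In a bulk library, a difference in the share of cells that express a gene and a difference in RNA per cell cannot be told apart. Of the 6 members, 3 were called higher and 0 lower in YFP+ TEM cells (limma on log2 of normalized count plus 1, Benjamini-Hochberg adjusted p of 0.05 or less), where 2.3% of all genes tested were called higher and 4.67% lower. The members were chosen with earlier results of these data known, so the share of all genes is a background and no test. *Trav11* and *Trav11d* share their exon sequence, so here and below their calls are not separate evidence. The median log2 fold change of the 6 members was 1.67, and that of all genes tested was -0.01. The value of 1.67 lies between those of the called and the uncalled members and describes neither.

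*Trav11* stood at 2303, 937 and 2185 normalized counts in replicates 1, 2 and 3 of the YFP+ TEM cells, and at 125, 88.9 and 126 in the YFP- TEM cells. *Trav11d* stood at 2437, 1039 and 2329 in YFP+ and at 135, 89.7 and 127 in YFP- TEM cells. Both segments were high in every YFP+ TEM library, with replicate 2 at less than each of the others, and neither overlapped with any library of another group. On the log2(normalized count + 1) scale, *Trav11* was higher by 3.89 (SE 0.40, adjusted p = 0.00017 by limma) and *Trav11d* by 3.96 (SE 0.37, adjusted p = 0.00011 by limma). The ratio of *Trav11d* to *Trav11* ran from 1.01 to 1.21 over the 12 libraries, as near-equal counts for identical exons, and how the counting treated reads with several matches was not given in the sources used here. Their sum, which may therefore count a read for both, was 3743 ± 1535 (SD, n = 3) in YFP+ and 230 ± 45 (SD, n = 3) in YFP- TEM cells. Within the same replicate number the sum was 18.3, 11.1 and 17.8 times as high in YFP+ as in YFP- TEM cells. *Trav11n* followed them, with 366, 132 and 322 normalized counts in YFP+ and 23.0, 29.6 and 22.4 in YFP- TEM cells, a log2 difference of 3.28 (SE 0.50, adjusted p = 0.0016 by limma). It matches *Trav11* at 97.7% of bases, so its counts may include reads from the other 2 segments. Whether they do was not tested, and they are not separate evidence.

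**Figure D1:**
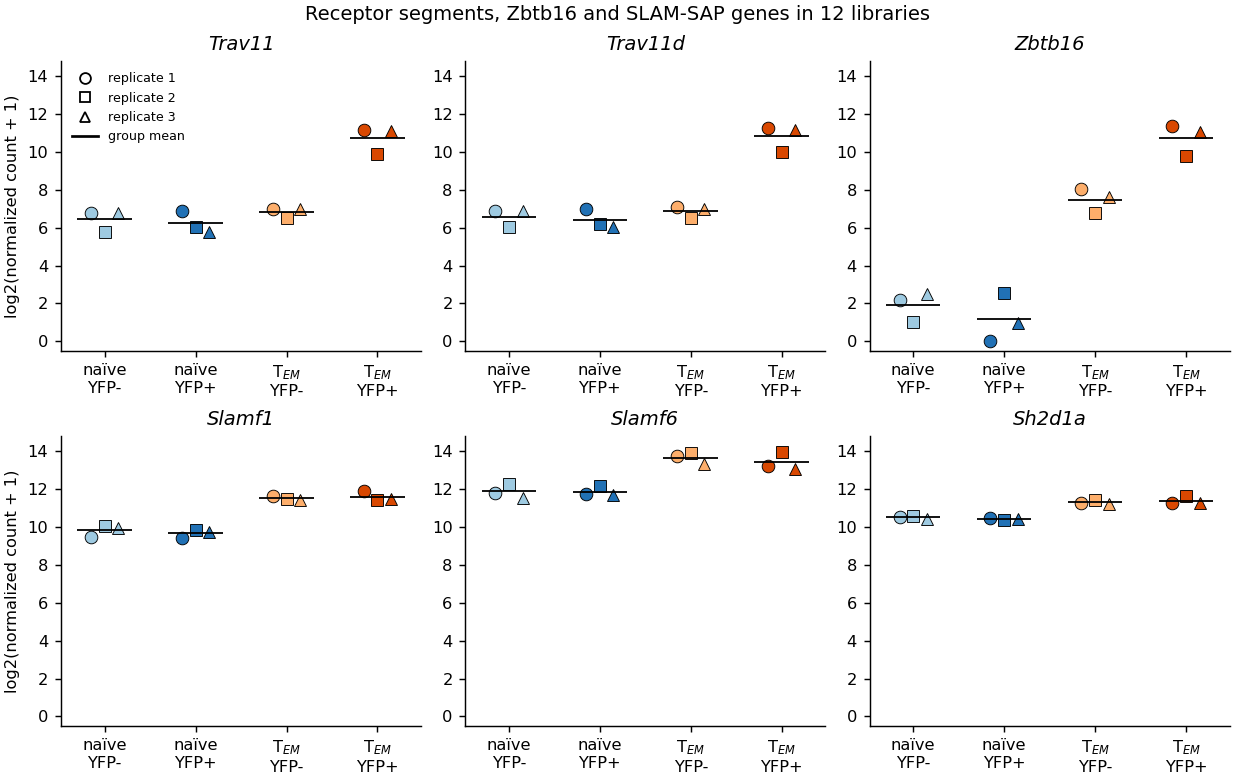
Level of each member as log2(normalized count + 1) in 12 libraries, 1 point per library with the replicate number as its shape and a line at the group mean. The 3 YFP+ TEM libraries lie above all others for Trav11, Trav11d and Zbtb16, while for Slamf1, Slamf6 and Sh2d1a both TEM groups lie above both naive groups and overlap with each other.

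Set against all alpha chain V segments of the same library, the segments took a small share of the reads outside YFP+ TEM cells. Of the reads on the 113 Trav genes in the table, *Trav11* and *Trav11d* together took 15.9% (95% Wilson interval 15.5 to 16.4), 8.02% (7.68 to 8.37) and 16.1% (15.7 to 16.6) in replicates 1, 2 and 3 of the YFP+ TEM cells. They took 1.00% (0.90 to 1.12), 0.68% (0.60 to 0.77) and 1.02% (0.90 to 1.16) in the YFP- TEM cells, and 0.37% to 0.63% in the 6 naive libraries. These intervals cover counting error only, and 23798 to 35633 reads per library stand behind each share. A read may be counted for both segments, so the shares may be off and the intervals too narrow. The 3 groups of values did not overlap: YFP- TEM libraries lay above the naive ones, and YFP+ TEM libraries far above both. None of the other 110 Trav segments was called by limma in either direction in the TEM YFP comparison. Of all genes, 2.3% were called higher there and 4.67% lower. The log2 differences of the 110 ran from -1.23 to 1.39, with a median of -0.17. With the replicate number as a block, 5 of those 110 were called lower and 0 higher by limma and 10 lower by DESeq2. Without a block DESeq2 called 7 lower, and quantile normalization 1 higher, *Trav14-3*.

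The J segment that pairs with them moved as well. *Traj18* had 206, 129 and 180 normalized counts in YFP+ and 68.9, 62.2 and 72.3 in YFP- TEM cells. Its 6 naive libraries lay between 61.8 and 104, so each YFP+ TEM library exceeded every other. The log2 difference in TEM cells was 1.30 (SE 0.26, adjusted p = 0.0075 by limma), and its share of reads on Traj segments was 6.60%, 4.46% and 7.31% in YFP+ against 2.06%, 2.6% and 2.50% in YFP- TEM cells. Among the other 50 Traj segments 0 were called, against 2.3% higher and 4.67% lower of all genes, with a median log2 difference of 0.06. *Traj47* had a numerically greater difference, 1.55, but with an SE of 0.73 (adjusted p = 0.31 by limma), and it was called by DESeq2 alone among the fits tried.

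**Figure D2:**
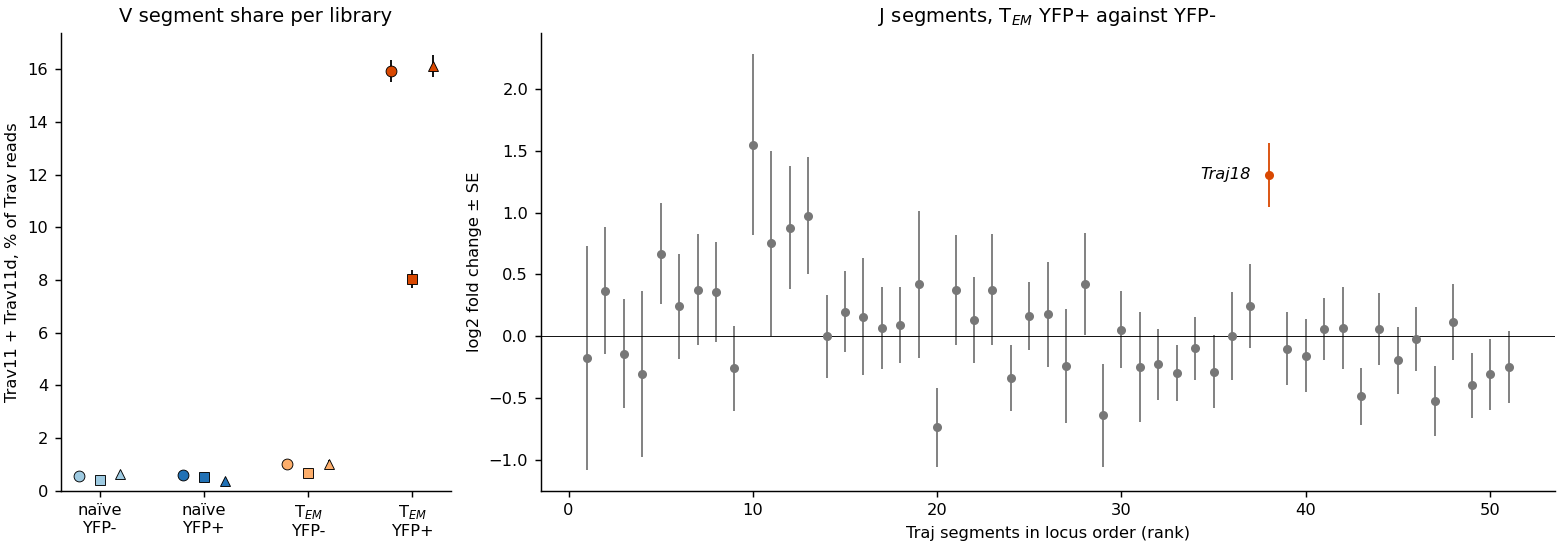
Left, the share of reads on Trav genes taken by Trav11 and Trav11d in each library, in percent, with 95% Wilson intervals. Right, the log2 fold change ± SE between YFP+ and YFP- TEM cells for each Traj segment in the order of the locus, where Traj18, in colour, stands at 1.30 and was the only one called by limma.

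The beta chain segments that favour pairing with this alpha chain differed less. Of the 5 other segments in the list of NKT receptor segments that were analysed here, *Traj18* alone was called in the limma fit of all 12 libraries as deposited, without a block, and *Trbv29* was not analysed here. *Trbv13-2* had 4156, 2867 and 3604 normalized counts in YFP+ and 2606, 2823 and 2579 in YFP- TEM cells, so that the groups did not overlap but replicate 2 was close to the YFP- range. Its log2 difference was 0.39 (SE 0.13, adjusted p = 0.10 by limma), and it was called in 6 of 26 alternative fits, among them DESeq2 without a block and limma with the replicate block (adjusted p = 0.029). *Trbv1* had a log2 difference of 0.51 (SE 0.15, adjusted p = 0.061 by limma), and it was called in 13 of the 26, among them edgeR, DESeq2 and limma with TMM factors or quantile normalization, all without a block, and limma with the block (adjusted p = 0.0012). Over all 22 Trbv segments 0 were called higher and 2 lower, against 2.3% and 4.67% of all genes. Up to 2 of the 22 were called higher in the alternative fits, with and without the block. The segments used by MAIT cells, another T cell type that depends on PLZF, were not called: *Trav1* had 43.5, 75.6 and 49.4 normalized counts in YFP+ and 55.8, 65.2 and 43.8 in YFP- TEM cells, and *Traj33* was not called either.

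*Zbtb16* had 2655, 884 and 2088 normalized counts in YFP+ TEM cells and 260, 108 and 198 in YFP- TEM cells. The groups did not overlap, and in each of them replicate 2 was lowest, as it was for the receptor segments. The log2 difference was 3.25 (SE 0.66, adjusted p = 0.0085 by limma). It was 2.90 to 3.87 over 26 other fits, of which 1, with 0.1 in place of 1 added before taking logs, lost the call at an adjusted p of 0.14 (range of adjusted p over all fits 1.5e-11 to 0.14). Within replicate numbers 1, 2 and 3, *Zbtb16* was 10.2, 8.17 and 10.6 times as high in YFP+ as in YFP- TEM cells, a narrower spread than the counts themselves.

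In the 6 naive libraries *Zbtb16* was at or near 0, with at most 5 reads in any of them, whereas *Trav11* and *Trav11d* together had 119 to 242 normalized counts there. The YFP- TEM cells had about as many segment counts as naive cells, 179 to 259, yet 108 to 260 of *Zbtb16*. Between naive and TEM cells without YFP, *Zbtb16* therefore rose (adjusted p = 1.7e-05 by limma), by a log2 difference of 4.18 to 6.04 over the fits tried, since the size depends on what is added to counts near 0. *Trav11* and *Trav11d* differed there by 0.37 (SE 0.40, adjusted p = 0.48 by limma) and 0.27 (SE 0.37, adjusted p = 0.57 by limma) and were not called. Under quantile normalization, where the median difference over all genes was -0.20 in place of 0.05, these 2 differences turned to -0.93 (adjusted p = 0.077) and -1.01 (adjusted p = 0.043 by limma, so that *Trav11d* was called lower).

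Unlike *Zbtb16*, the SLAM-SAP genes showed no difference between YFP fractions that passed the test. *Slamf1*, which encodes CD150, had 3877, 2760 and 2833 normalized counts in YFP+ and 3149, 2880 and 2743 in YFP- TEM cells. *Slamf6*, which encodes Ly108, had 9540, 16163 and 8518 in YFP+ and 13721, 15423 and 10146 in YFP- TEM cells. *Sh2d1a*, which encodes SAP, had 2492, 3185 and 2481 in YFP+ and 2484, 2806 and 2343 in YFP- TEM cells. The groups overlapped for all 3 genes. Their log2 differences were 0.10 (95% interval -0.26 to 0.45, adjusted p = 0.88 by limma) for *Slamf1*, -0.24 (-0.77 to 0.30, adjusted p = 0.76 by limma) for *Slamf6* and 0.09 (-0.14 to 0.32, adjusted p = 0.80 by limma) for *Sh2d1a*. All 3 intervals lay within 1 of 0 on the log2 scale.

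These 3 genes were instead higher in TEM than in naive cells of both fractions. *Slamf1* had 723, 1059 and 976 normalized counts in YFP- and 696, 924 and 838 in YFP+ naive cells, all below the lowest TEM library. *Slamf6* had 3617, 4888 and 3019 in YFP- and 3386, 4526 and 3354 in YFP+ naive cells. *Sh2d1a* had 1457, 1529 and 1397 in YFP- and 1432, 1316 and 1366 in YFP+ naive cells. No naive library reached a TEM library for any of the 3 genes. Among YFP- cells the log2 differences between TEM and naive cells were 1.68 for *Slamf1* (SE 0.16, adjusted p = 3.5e-06 by limma), 1.78 for *Slamf6* (SE 0.25, adjusted p = 6.7e-05 by limma) and 0.80 for *Sh2d1a* (SE 0.11, adjusted p = 4.8e-05 by limma). Among YFP+ cells they were 1.94 (SE 0.16), 1.56 (SE 0.25) and 0.98 (SE 0.11), all called.

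By member, 4 of 6 were called higher in YFP- TEM than in YFP- naive cells, where 29.9% of all genes were called higher and 19.9% lower. All 6 were called higher in YFP+ TEM than in YFP+ naive cells, where 24.7% of all genes were called higher and 16.7% lower, with log2 differences of 4.48 for *Trav11* and 4.41 for *Trav11d*. These 2 comparisons of cell state share no library, but each shares a group with a YFP comparison.

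Between YFP+ and YFP- naive cells 0 of 6 members were called in either direction by limma, and 0 by edgeR and DESeq2, with every adjusted p at 1 by limma. In that comparison 0.00642% of all genes were called higher, which is 1 gene, and 0.0% lower. The unadjusted p by limma was at most 0.05 for 518 genes, which is only 3.32% of those tested. *Trav11* had 117, 64.9 and 53.9 normalized counts in YFP+ and 111, 54.1 and 108 in YFP- naive cells, and *Trav11d* 125, 72.8 and 65.1 against 115, 64.7 and 116. The naive groups overlapped for all 6 members.

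The effect of YFP status differed between TEM and naive cells for 3 of 6 members, all with a greater difference in TEM cells, where 0.828% of all genes were called higher and 2.73% lower in this interaction. It was 4.11 on the log2 scale for *Trav11* (SE 0.57, adjusted p = 0.0032 by limma), 4.14 for *Trav11d* (SE 0.52, adjusted p = 0.0025 by limma) and 3.98 for *Zbtb16* (SE 0.93, adjusted p = 0.035 by limma). The *Zbtb16* call was lost in 13 of 25 other fits, with adjusted p from 0.0036 to 0.24, including those by edgeR and those without replicate 1 or 3 of any group, and the difference stayed between 3.39 and 5.22. For *Slamf1*, *Slamf6* and *Sh2d1a* it was 0.25, -0.22 and 0.18 and was not called.

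The levels were then set against the summed segments in each library. Per summed *Trav11* and *Trav11d* count, *Zbtb16* stood at 0.56, 0.45 and 0.46 in replicates 1, 2 and 3 of the YFP+ and at 1.00, 0.61 and 0.78 of the YFP- TEM cells. So while both rose in YFP+ cells, *Zbtb16* rose by a smaller factor, and the ratios did not overlap. The log2 ratio was lower by 0.68 in YFP+ TEM cells, which is 0.62 times the YFP- ratio (exact permutation test, two-sided, p = 0.10, which is the smallest that 3 libraries against 3 allow, and 0.10 after Benjamini-Hochberg adjustment over 4 ratios). *Slamf1* per summed count was 0.82, 1.40 and 0.63 in YFP+ and 12.1, 16.1 and 10.8 in YFP- TEM cells. For *Slamf6* the ratio was 2.01, 8.18 and 1.89 against 52.9, 86.4 and 40.0, and for *Sh2d1a* it was 0.53, 1.61 and 0.55 against 9.59, 15.7 and 9.24. The log2 ratio differed between YFP+ and YFP- TEM cells by -3.84, -4.17 and -3.84 for *Slamf1*, *Slamf6* and *Sh2d1a*, beside a difference of 3.93 in the summed segments, and each had the same exact permutation p of 0.10 before and after adjustment. For these 3 genes the groups overlapped while the segments were far apart, so the ratios mainly restate the segment difference. Their p therefore could not come out otherwise and is no test of the 3 genes. In naive cells *Zbtb16* per summed count was 0 to 0.036.

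**Figure D3:**
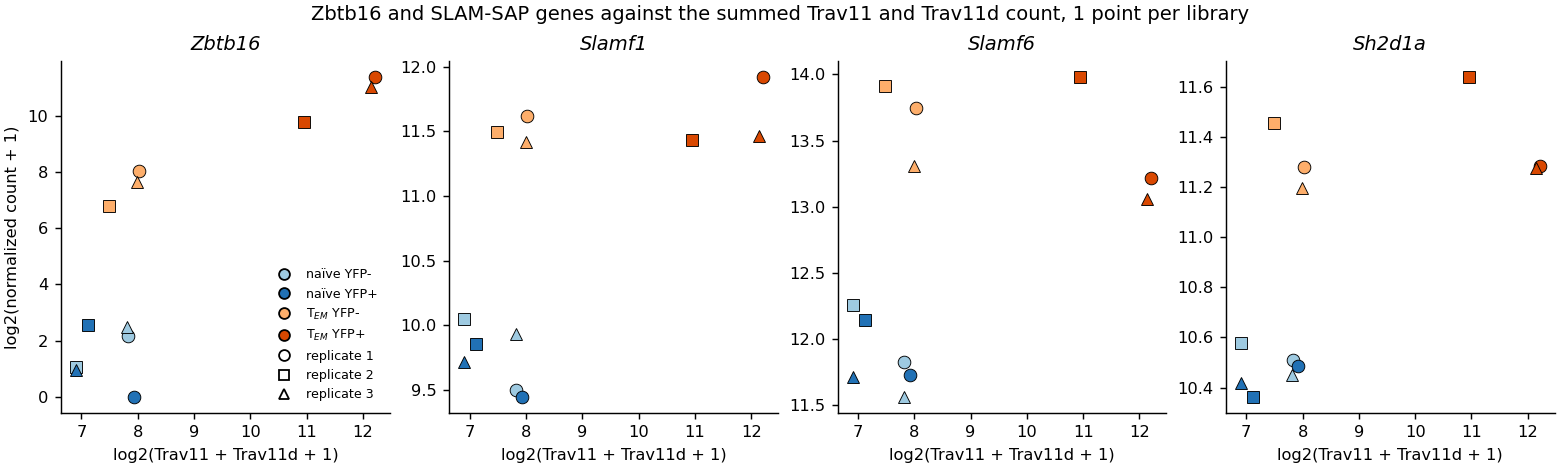
Level of Zbtb16, Slamf1, Slamf6 and Sh2d1a, as log2(normalized count + 1), against the summed Trav11 and Trav11d count on the same scale, 1 point per library coloured by group and shaped by replicate number. For Zbtb16 the 6 TEM libraries climb from lower left to upper right, and for the other 3 genes the YFP+ TEM libraries lie far to the right of the YFP- TEM libraries at about the same height.

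As a description over the 6 TEM libraries, which fall into 2 separate groups, Pearson's r with the summed segments on the log2 scale was 0.99 for *Zbtb16*, 0.38 for *Slamf1*, -0.51 for *Slamf6* and 0.09 for *Sh2d1a*. Over all 12 libraries it was 0.82 for *Zbtb16*. Over the 9 libraries other than YFP+ TEM it was 0.47 for *Zbtb16*, 0.34 for *Slamf1*, 0.27 for *Slamf6* and 0.41 for *Sh2d1a*. Within both TEM groups replicate 2 was lowest in the segments and in *Zbtb16* and highest in *Slamf6* and *Sh2d1a*. The same replicate was highest in 5 of 5 follicular helper T cell markers in the YFP+ TEM cells, cells in which SLAM receptors and SAP are also known to act, and their sum was 36751 normalized counts there against 13702 and 16000. In YFP- TEM cells that sum was 31306 in replicate 2 against 18057 and 21862, and in naive cells it was 2042 to 2593, with *Ascl2* at 0 in all 6. The part of these markers in the result was not tested.

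The genes most like the summed segments over the 12 libraries, among the 11911 genes that averaged 50 or more normalized counts, were *Aqp9*, *Cntn1*, *Lmo4*, *Enpp5* and *Btbd11*, with Pearson's r of 0.993, 0.978, 0.977, 0.973 and 0.971. *Aqp9* had 1782, 787 and 1916 normalized counts in YFP+ TEM cells, 35.6 to 54.0 in YFP- TEM cells and 19.1 to 43.3 in naive cells. *Cntn1* had 317, 143 and 256 in YFP+ TEM cells and at most 3.3 in any other library. The other 3 were expressed in every library, with log2 differences in the TEM YFP comparison of 1.38 for *Lmo4*, 1.07 for *Enpp5* and 1.24 for *Btbd11*. *Traj18* ranked 71 of 11911 (r = 0.89), *Zbtb16* 194 (r = 0.82), *Slamf1* 1050 (r = 0.64), *Sh2d1a* 1113 (r = 0.63) and *Slamf6* 2917 (r = 0.46). All of these values were lower without the 3 YFP+ TEM libraries, which stand apart from the other 9. Over those 9, r was 0.84 for *Aqp9*, 0.61 for *Cntn1*, 0.60 for *Lmo4*, 0.48 for *Enpp5*, 0.55 for *Btbd11* and -0.24 for *Traj18*.

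Of the 7 other SLAM family receptors, 0 were called higher and 3 lower in YFP+ TEM cells, against 2.3% and 4.67% of all genes. The median log2 difference of the 7 was -0.01. *Cd244a*, which encodes the receptor 2B4, had 84.9, 40.4 and 108 normalized counts in YFP+ and 1097, 867 and 1441 in YFP- TEM cells. *Slamf8* had 55.6, 28.0 and 44.7 in YFP+ and 399, 382 and 799 in YFP- TEM cells, and *Slamf9* had 10.1, 6.2 and 6.7 against 179, 88.9 and 129. Each of the 3 was far lower in every YFP+ than in any YFP- TEM library, by -3.93 for *Cd244a* (SE 0.73, adjusted p = 0.0049 by limma), -3.56 for *Slamf8* (SE 0.73, adjusted p = 0.0089 by limma) and -3.92 for *Slamf9* (SE 0.76, adjusted p = 0.0066 by limma). The calls of *Slamf8* and *Slamf9* were lost with 0.1 added before taking logs (adjusted p = 0.16 and 0.12), and that of *Slamf8* also without YFP- TEM replicate 3 (adjusted p = 0.056), while their adjusted p over all fits ran from 3.5e-11 to 0.16 and from 5.1e-05 to 0.12. *Sh2d1b1*, which encodes the SAP relative EAT-2, moved with them, at 27.3, 30.03 and 46.6 in YFP+ and 349, 333 and 756 in YFP- TEM cells, a log2 difference of -3.68 (SE 0.66, adjusted p = 0.0039 by limma).

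Markers of dendritic cells moved with these 4 genes. The 6 plasmacytoid dendritic cell markers summed to 3298 to 4139 normalized counts in YFP+ TEM cells, 9271 to 17149 in YFP- TEM cells, 2785 to 2981 in YFP- and 2570 to 3460 in YFP+ naive cells. The 4 conventional dendritic cell markers summed to 453 to 969 in YFP+ and 7679 to 15407 in YFP- TEM cells, against 73.7 to 121 in YFP- and 72.5 to 312 in YFP+ naive cells. For the 5 macrophage and neutrophil markers the sums were 1518 to 3092 in YFP+ and 4577 to 8756 in YFP- TEM cells, against 81.8 to 512 in YFP- and 128 to 2910 in YFP+ naive cells. Of these 5, *S100a8* and *S100a9* went the other way at low counts and were not called. *S100a8* had 30.3, 7.2 and 48.5 in YFP+ and at most 1.5 in YFP- TEM cells. For *S100a9* the counts were 41.5, 16.6 and 89.4 against at most 4.4. No gene of these lists was at 0 in all libraries of a TEM group, and *Siglech*, a defining marker of plasmacytoid dendritic cells, fell from 3367, 1412 and 3263 in YFP- to 118, 26.9 and 55.1 in YFP+ TEM cells. The part of these markers in the values of *Cd244a*, *Slamf8*, *Slamf9* and *Sh2d1b1* was not tested.

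Of the SLAM receptors that T cells carry, *Ly9* had 11121, 9766 and 11599 normalized counts in YFP+ and 8379, 8449 and 8458 in YFP- TEM cells, and *Cd84* had 10740, 10334 and 10002 against 8927, 9008 and 7716. Both were higher in every YFP+ than in any YFP- TEM library. The differences were small, 0.36 for *Ly9* (SE 0.10, adjusted p = 0.053 by limma) and 0.28 for *Cd84* (SE 0.10, adjusted p = 0.12 by limma), and both were called with the replicate block (adjusted p = 0.0064 and 0.0091). *Ly9* was called in 13 of 26 alternative fits, edgeR and DESeq2 without a block among them, and *Cd84* in 3, all with the block. Over all fits the adjusted p ran from 5.5e-05 to 0.20 for *Ly9* and from 8.8e-05 to 0.44 for *Cd84*. *Cd48*, at 3388 to 4948 in YFP+ and 3473 to 4649 in YFP- TEM cells, and *Slamf7*, at 1220 to 2930 and 1704 to 2881, overlapped between the groups and were not called. The kinase gene *Fyn* was at 25604 to 33475 in YFP+ and 22838 to 28446 in YFP- TEM cells and was not called. *Cd1d1*, which encodes the molecule that presents lipids to NKT cells, was at 836 to 992 against 935 to 1136 and was not called either.

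**Figure D4:**
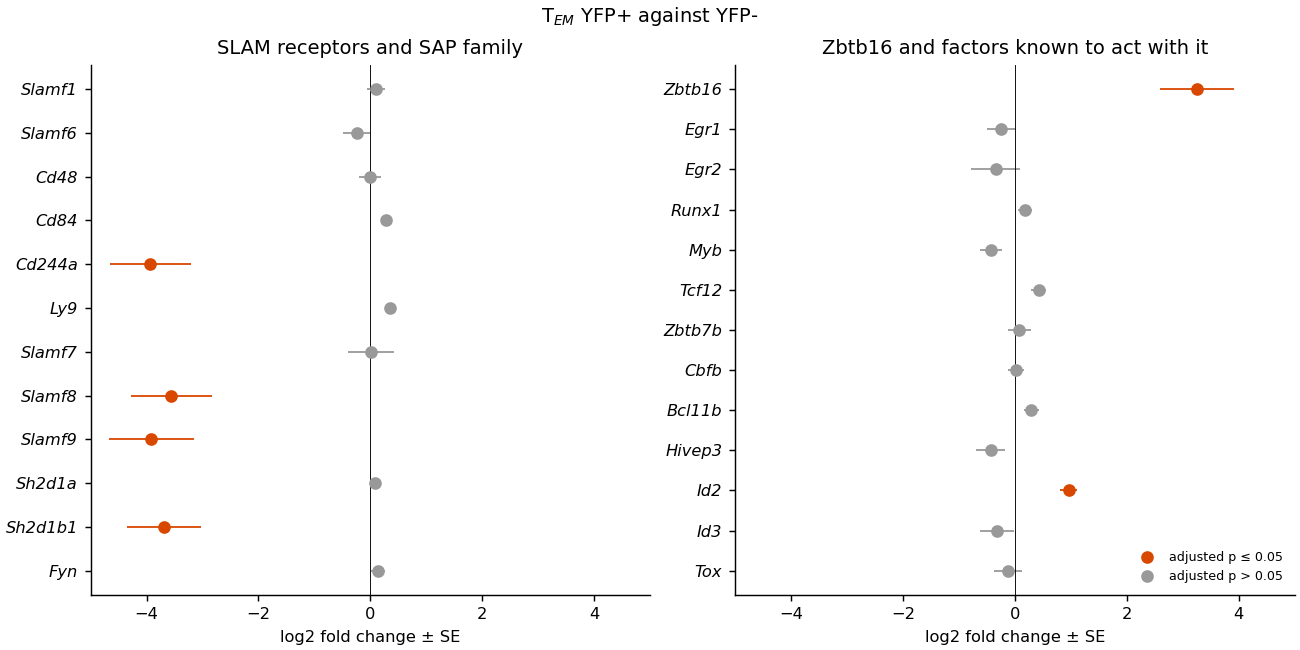
Log2 fold change ± SE between YFP+ and YFP- TEM cells for the SLAM receptors and SAP family (left) and for Zbtb16 and 12 factors known to act with or upstream of it (right), coloured where the adjusted p was 0.05 or less. Slamf1, Slamf6 and Sh2d1a lie within 0.24 of 0, Cd244a, Slamf8, Slamf9 and Sh2d1b1 lie below -3.5, and on the right Zbtb16 at 3.25 and Id2 at 0.96 were called.

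Of 12 factors known to act with PLZF or upstream of it in NKT cells, 1 was called higher and 0 lower in YFP+ TEM cells. Of all genes, 2.3% were called higher and 4.67% lower, and the median log2 difference of the 12 was -0.05. The factor called was *Id2*, an inhibitor of E proteins that NKT cells need as they mature. It had 27568, 18185 and 27353 normalized counts in YFP+ and 12916, 12230 and 11765 in YFP- TEM cells, a log2 difference of 0.96 (SE 0.15, adjusted p = 0.0015 by limma). Every YFP+ library exceeded every YFP- library, and replicate 2 was again the lowest of the YFP+ libraries. *Tcf12* was also called higher by edgeR and DESeq2 and with TMM factors or quantile normalization, all without a block. With the replicate block limma called 3 of the 12 higher, *Id2*, *Tcf12* and *Bcl11b*, edgeR also *Runx1*, and DESeq2 also called *Id3* lower. The early factors *Egr1* and *Egr2*, which switch on *Zbtb16* after receptor signalling, were not called and were highest in replicate 2 of both TEM groups.

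The list of effector genes of NKT subsets was also chosen with earlier results of these data known. Of these 16 genes, 8 were called higher in YFP+ TEM cells and 0 lower, against the 2.3% and 4.67% of all genes. The median log2 difference of the 16 was 1.40. The count was 5 with 0.1 and 11 with 5 added before taking logs, 12 with only the libraries compared, 13 by edgeR with the replicate block and 10 by limma with the block. The 4 with the greatest differences encode surface receptors and a chemokine. *Klrk1*, which encodes NKG2D, had 1727, 1403 and 1564 normalized counts in YFP+ and 175, 151 and 135 in YFP- TEM cells, a log2 difference of 3.34 (SE 0.51). *Cxcr6*, a chemokine receptor of liver NKT cells, had 12574, 6095 and 14100 against 1258, 1159 and 1255, a difference of 3.07 (SE 0.35). *Klrb1c*, which encodes NK1.1, had 1403, 870 and 1640 against 160, 153 and 149, a difference of 3.03 (SE 0.53). *Xcl1* had 575, 370 and 759 against 57.4, 90.4 and 66.2, a difference of 2.94 (SE 0.47), and lost its call with 0.1 added before taking logs (adjusted p = 0.17, where the range over all fits was 6.5e-15 to 0.17). All 4 were higher in every YFP+ than in any YFP- TEM library, and *Klrk1* and *Xcl1* showed no more than 17 normalized counts in any naive library. Many of these genes are also expressed by NK cells, gamma delta T cells and conventional effector T cells.

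**Figure D5:**
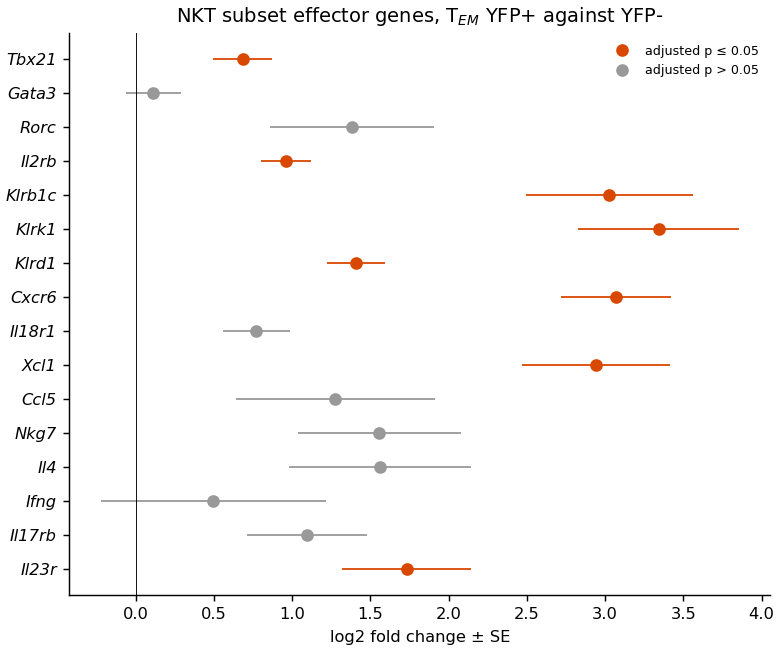
Log2 fold change ± SE between YFP+ and YFP- TEM cells for 16 effector genes of NKT subsets, coloured where the adjusted p was 0.05 or less. All 16 lie above 0 and 8 of them were called.

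Other lymphocyte markers moved with these genes and with the segments. The 4 NK cell markers in the table summed to 1409 to 2126 normalized counts in YFP+ and 603 to 792 in YFP- TEM cells, against 241 to 256 in YFP- and 244 to 317 in YFP+ naive cells. *Klrb1c*, given above, had the highest count of these 4 in each YFP+ TEM library. *Ncr1*, the most defining of them, had 35.4, 6.2 and 56.1 in YFP+ and 0 in all 3 YFP- TEM libraries. *Eomes* went the other way, at 375, 460 and 336 in YFP+ and 494, 634 and 453 in YFP- TEM cells. Its groups overlapped and it was not called. The 5 gamma delta T cell markers summed to 1948 to 3725 in YFP+ and 416 to 533 in YFP- TEM cells, against 578 to 659 in YFP- and 477 to 589 in YFP+ naive cells. That rise lay in the gamma chain constant segments *Trgc1*, *Trgc2* and *Trgc4*, whereas *Trdc*, the constant segment of the delta chain, had 216, 258 and 189 in YFP+ and 214, 248 and 358 in YFP- TEM cells, and *Sox13* was at 0 in all YFP- and at most 12.4 in YFP+ TEM libraries. The part of these markers in the values of the segments, *Zbtb16* and the effector genes was not tested.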

How the data were processed

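Total RNA of sorted CD4+ T cells was sequenced with a stranded kit, and per the labels and the study's methods the authors aligned them with DRAGEN (mm10), counted them per gene with Rsubread and normalized them with DESeq2. The deposited signal is a table of read counts over library size factors of DESeq2 (17523 genes, 12 libraries, 0 columns unused). The annotation, the strand setting and the handling of reads with several matches are not given in the sources used here. All values were whole multiples of 1 read, within a tolerance of 1e-06, so whole reads were recovered for 100% of them (40974124 to 57822269 reads per library, which limits the precision of genes near 0).

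Entrez IDs were named with RefSeq (GRCm38.p6, 16749 genes named), and segment sequences came from GENCODE transcripts of GRCm38. Groups followed the sample titles. The main test was limma 3.58.1 (R 4.3.3) on log2(normalized count + 1) with 4 group means over all 12 libraries, a trended variance and Benjamini-Hochberg adjustment over the 15587 genes that reached 5 normalized counts in 3 or more libraries. edgeR 4.0.16 and DESeq2 1.42.0 on the recovered reads, other added values, filters and scalings, a replicate block and leaving out each library were alternatives. Only the limma fit of the TEM YFP comparison was tried on simulated data. These had the same setting of the spread for all genes and no replicate effect. Shares carry 95% Wilson intervals, and ratios were compared by exact permutation tests. Replicate libraries differed by more than counting noise (chi-square per degree of freedom 38.7 to 86.1), and p-values measure only the spread between these libraries.

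Same-numbered libraries deviated together from their group means (r 0.18 to 0.49, against -0.35 to 0.02 for other numbers), so the fits with the replicate block took the number to pair them. The main limma test and the permutation tests did not use this pairing, so their p-values are unpaired. The members and lists were chosen with earlier results of these data known. Named genes were the 6 members, at most 4 genes per list (the greatest differences among those called in the TEM YFP comparison, otherwise the highest mean) and the 5 genes with the highest r with the summed segments. *Trav11n*, *Traj47*, *Trbv13-2*, *Trbv1*, *Ly9*, *Cd84*, *Cd48*, *Slamf7*, *Egr1*, *Egr2*, *Tcf12*, *Bcl11b* and the single marker genes were named after their values were seen.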

Additional observations from a re-analysis of the deposited data

Results flagged for a closer look

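The effect of YFP status on *Trav11d* was greater in TEM than in naive cells by 4.14 on the log2 scale, a difference that was itself tested (adjusted p = 0.0025 by limma). The same test gave 4.11 for *Trav11* (adjusted p = 0.0032 by limma), which shares its exon sequence with *Trav11d* and so is no separate evidence. It gave 3.98 for *Zbtb16* (adjusted p = 0.035 by limma, from 0.0036 to 0.24 over the fits tried). With 3 libraries per group, single libraries were not checked as outliers.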

How the results depend on the processing

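Of 1527 values for 59 gene results under 26 alternative fits, 1442 kept their direction and side of the threshold, 21 lost and 38 gained a call, and 26 changed direction. With the log2 fold change also required to be 2 or more, 1 member was called between TEM and naive YFP- cells and 3 between YFP+ cells. With reads on *Trac* as the denominator, the mean share of *Trav11* and *Trav11d* in YFP+ TEM cells was 6.48% in place of 13.4%, and restricting the denominator to Trav genes that passed the filter changed nothing, since all 113 passed. Quantile normalization turned the difference between TEM and naive YFP- cells to -0.93 for *Trav11* and -1.01 for *Trav11d*, with adjusted p = 0.043 for the latter (0.043 to 0.99 over all fits), and turned that of *Trdc* in the TEM YFP comparison to 0.011. For *Cd48* the sign turned with TMM factors (0.026), edgeR (0.036, and 0.029 with the block) and DESeq2 (0.0039), and with all libraries numbered 2 left out (0.027). That last setting also turned *Slamf6* in naive cells (0.028) and *Trav1* (-0.091). Leaving out single libraries turned *Slamf1* (-0.062 to 0.18 over all fits), *Sh2d1a* (-0.029 to 0.16), *Slamf7* (-0.22 to 0.42), *Cd48* (-0.18 to 0.12) and *Trav1* (-0.22 to 0.29) in the TEM YFP comparison, *Trav11* (-0.55 to 0.013) and *Slamf6* (-0.18 to 0.17) in naive cells, and *Trav11d* (-0.0046 without YFP- naive replicate 2, up to 0.45 without YFP- TEM replicate 2) between TEM and naive YFP- cells. The summed segments differed by 3.71 to 4.34 under all alternatives, and the log2 ratio of *Zbtb16* to them by -0.86 to -0.50. The cause of these changes was not tested.

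The replicate block changed no call of a member. Over all genes it called 1869 in the TEM YFP comparison against 1087 without it, with 43.6% against 33.0% of calls higher, and 890 against 554 in the interaction. By DESeq2 and by edgeR without the block 1588 and 1126 genes were called in the TEM YFP comparison, and 638 when YFP- TEM replicate 3 was left out. The block, DESeq2 with the block, edgeR with the block and leaving out all libraries numbered 2 were run as stated, the last 3 being chosen after seeing the data. Depth limits *Zbtb16* in naive cells, where no library had more than 5 reads.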
